A study of Mus musculus with 12 samples.

Results

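The 10 loci described here belong to genes that mark or specify mesenchymal cells: Pdgfra, Pdgfrb and Thy1, which encode cell surface proteins, and Twist1, Twist2, Prrx1, Tcf21, Osr1, Osr2 and Runx1, which encode transcription factors. Each locus was taken as the gene body in GENCODE M21 with 50000 bp upstream of it, and its members were the ATAC-seq peaks whose summit lay inside. Of 658361 peaks in 12 lists, 361 fell in the 10 loci, out of 21938 protein-coding loci in all. Merging the peaks that overlapped or touched gave 238 regions over the 10 loci, of 435284 in the genome.

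Chromatin accessibility was measured by ATAC-seq, in which a transposase cuts exposed DNA and tags it for sequencing. The cells were fibroblasts taken into primary culture from lower abdominal muscle of Aromhum mice, a strain with a human aromatase transgene that makes estrogen out of androgen. There were 4 groups of 3 libraries, and cells of all 4 came from Aromhum mice, so no wild-type cells entered any comparison here. The vehicle group received neither agent, and the E2 group 10 nM estradiol. The E2 plus fulvestrant group received 10 nM estradiol with 100 nM of the estrogen receptor antagonist fulvestrant, and the fulvestrant group 100 nM of fulvestrant alone. The time is 1 h by the labels. By the study's methods, fulvestrant or DMSO was given 3 h before E2 or ethanol, and the 1 h began when E2 or ethanol was added. The labels do not say whether the 3 libraries of a group came from separate animals or cultures, so the tests measure only the spread between these libraries.

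PDGFRA and PDGFRB are receptor tyrosine kinases for platelet-derived growth factors and are common markers of fibroblasts and of the cells around vessels. THY1 is a surface glycoprotein of many fibroblasts. The transcription factors fall into families: TWIST1, TWIST2 and TCF21 are basic helix-loop-helix proteins that bind E-boxes, PRRX1 is a homeodomain protein of limb and body wall mesenchyme, OSR1 and OSR2 are zinc finger proteins of connective tissue progenitors, and RUNX1 is a DNA-binding subunit of core binding factor. An accessible promoter is not a measure of expression, and absence of a peak in a list does not show closed chromatin.

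The lists differed from each other before any locus was considered. They held 30062 to 110724 peaks per library. A promoter was counted as called when a summit lay within 3000 bp of any annotated start of that gene, and from 17.3% to 62.7% of the 21938 protein-coding promoters were called per library. All 4 libraries of replicate number 1 lay between 57.6% and 62.7%, and vehicle replicates 2 and 3 at 44.3% and 53.7%. Replicates 2 and 3 of the other 3 treatments lay between 17.3% and 29.6%. The replicate 1 libraries also had 22 to 36 peaks on chromosome Y, against 854 to 1148 in the other 8. Vehicle is therefore the only treatment with 3 libraries that called over 40% of promoters, and a difference from vehicle cannot be told apart from this difference between lists.

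Most of the 10 promoters were called mainly in the libraries in which most promoters were called. Prrx1, called in 1 of the 4 libraries of replicate number 1 and in 4 of the 8 others, and Tcf21, called in 0, did not follow this. In vehicle replicates 1, 2 and 3, the numbers of member promoters called were 8, 6 and 8 of 10. In E2 they were 9, 4 and 0, in E2 plus fulvestrant 7, 2 and 1, and in fulvestrant 8, 0 and 0. Replicate 1 of each treatment had 7 to 9, and the 3 treatments other than vehicle had from 0 to 4 in replicates 2 and 3. In those 6 libraries with a low share, 5 of the 10 promoters were not called at all, beside 36.5% of all protein-coding promoters.

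**Figure D1:**
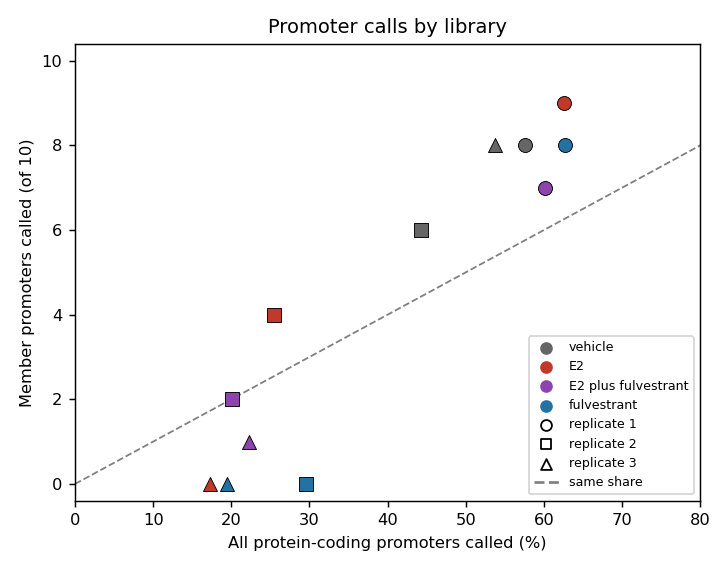
Each point is a library, placed by the percentage of all 21938 protein-coding promoters called (x axis) and the number of the 10 member promoters called (y axis). Colour gives the treatment, the symbol gives the replicate number, and the dashed line is where both shares are equal. Libraries with 57.6% to 62.7% of all promoters called had 7 to 9 of the member promoters, and those with 17.3% to 29.6% had 0 to 4.

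No member promoter was called in all 12 libraries, beside 0.757% of all protein-coding promoters. In at least 6 of 12 libraries, 6 of 10 member promoters were called, beside 45.2% of all. Pdgfra and Osr2 were called in 7 libraries, Pdgfrb, Thy1, Twist1 and Runx1 in 6, and Twist2, Prrx1 and Osr1 in 5. Tcf21 was called in 0 libraries, as were 11.8% of all protein-coding promoters. In all 4 libraries of replicate number 1, 7 of 10 member promoters were called, beside 42.6% of all: Pdgfra, Pdgfrb, Thy1, Twist1, Osr1, Osr2 and Runx1. With a window of 1000 bp in place of 3000 bp, 3 member promoters reached 6 libraries, and with peaks of q 0.05 or less 1 did, that of Runx1.

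Of the surface genes, Pdgfra (chr5:75152292-75198215, GRCm38, plus strand) had its most widely called region inside the gene and not at its 5′ end. The region was called in 7 libraries, with its summit 3593 bp downstream of the 5′ end of the gene, in an intron of some transcripts and at position -14 bp from the start of another. Fold enrichment, the ratio of tags at the summit to the local background, was 3.45, 2.78 and 3.48 in vehicle replicates 1 to 3. It was 3.35 and 2.80 in E2 replicates 1 and 2, 4.08 in E2 plus fulvestrant replicate 1 and 3.81 in fulvestrant replicate 1. The 5 values above 3 passed q of 0.05, and those of vehicle replicate 2 and E2 replicate 2 did not. A region at position -30512 bp from the 5′ end, in an intron of the gene Gm19583, was called in 4 libraries, vehicle replicates 1 and 3 and replicate 1 of E2 plus fulvestrant and of fulvestrant, with fold enrichment from 2.97 to 4.75.

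Pdgfra had 3, 3 and 4 peaks in its locus in vehicle, 4, 6 and 2 in E2, 4, 2 and 2 in E2 plus fulvestrant, and 6, 2 and 1 in fulvestrant. These values overlap among all 4 groups. The 6 peaks of E2 replicate 2 came from a list in which 43.9% of peaks had a q of 1, and 13 of the 26 peaks over the 10 loci in that library had a q of 1.

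Thy1 (chr9:44043384-44048579, plus strand) had a region at its start in 4 libraries, all of them replicate 1. Fold enrichment was 3.50 in vehicle, 3.99 in E2, 4.91 in E2 plus fulvestrant and 3.10 in fulvestrant, and the summits lay between positions -81 and 50 bp from the start. The 2 further promoter calls of Thy1, in vehicle replicate 2 and E2 replicate 2, were at other places. That of vehicle replicate 2 lay beyond the end of the gene, outside the locus. With only peaks inside the locus counted, Thy1 was called in 5 libraries. Its locus had 2, 3 and 2 peaks in vehicle, 4, 2 and 0 in E2, 1, 1 and 2 in E2 plus fulvestrant, and 2, 1 and 0 in fulvestrant, and no distal region was called in more than 2 libraries.

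Twist1 (chr12:33957671-33959829, plus strand) had the highest enrichment among the start regions of the 7 transcription factor genes. The region was called in vehicle replicates 1 and 3 at 5.17 and 5.86, in E2 replicate 1 at 7.59, in E2 plus fulvestrant replicate 1 at 7.14 and in fulvestrant replicate 1 at 8.28. All 5 calls passed q of 0.05, and the 5 summits lay between positions -147 and 86 bp from the start. The other 7 libraries had no peak in this region, and the whole locus held 9 peaks in 12 lists. The 201 bases around its summit, on the plus strand of GRCm38 as in all sequences here, are shown as the start region with the highest enrichment of those printed. It has 70.6% G and C, and holds none of the motifs searched (AP-1, E-box, RUNX, TEAD, CTCF and estrogen response element), so no letter is in capitals.
Twist1 start, chr12:33957564-33957764: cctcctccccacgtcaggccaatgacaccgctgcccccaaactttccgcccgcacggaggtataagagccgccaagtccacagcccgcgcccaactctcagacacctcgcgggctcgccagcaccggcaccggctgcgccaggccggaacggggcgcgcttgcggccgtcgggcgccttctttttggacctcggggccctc

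Twist2 (chr1:91801461-91848028, plus strand), the paralog of Twist1, differed from it in layout. Its 5′ end had no region in more than 3 libraries, whereas a region 15306 bp into the gene, in an intron, was called in 6. Fold enrichment there was 4.04 and 6.99 in vehicle replicates 1 and 3, 4.39 in E2 replicate 1, 3.15 and 2.42 in E2 plus fulvestrant replicates 1 and 3, and 3.23 in fulvestrant replicate 1. The call in E2 plus fulvestrant replicate 3 had a q of 1 and 3 of the 6 passed q of 0.05. The summits were spread over 765 bp, and chaining summits within 150 bp left the region below 6 libraries. The locus had 7, 8 and 3 peaks in vehicle, 8, 2 and 4 in E2, 6, 6 and 6 in E2 plus fulvestrant, and 7, 2 and 2 in fulvestrant. E2 plus fulvestrant was thus the most even group at this locus.

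The 100 bp to each side of a summit were searched on both strands for the motifs TGACTCA (AP-1), CATCTG (an E-box), TGTGGT (RUNX) and GGAATG (TEAD), with the CTCF and palindromic estrogen response elements by their consensus. TGACTCA on its reverse strand reads TGAGTCA, and none of these motifs overlaps another in the sequences shown. The Twist2 intronic region held 1 AP-1 match, in capitals below. Of all 5646 recurrent distal regions of the genome, which are regions over 3000 bp from any transcript start called in at least 6 libraries, 5.42% held AP-1. Of the 272234 distal regions called in 1 library, 3.83% did. The estrogen response element was found in none of the named member regions, and in 0 of the 5646 recurrent distal regions. Only the full palindrome was searched, and it was rare, in 12 (0.00441%) of the 272234 distal regions called in 1 library. Its absence therefore does not show that these regions lack sites for the estrogen receptor.
Twist2 intron, chr1:91816667-91816867: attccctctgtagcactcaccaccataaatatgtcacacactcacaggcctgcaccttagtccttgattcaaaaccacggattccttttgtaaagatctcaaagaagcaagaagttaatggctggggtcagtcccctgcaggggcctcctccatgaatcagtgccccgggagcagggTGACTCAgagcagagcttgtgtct

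Prrx1 (chr1:163245119-163313710, minus strand) resembled Twist2 in layout, with few calls at its start and more in its introns. Its start was called in 5 libraries, vehicle replicates 2 and 3, E2 replicates 1 and 2 and E2 plus fulvestrant replicate 3, but at 3 separate places, none in more than 2 libraries. A region 61140 bp into the gene, 36654 bp from the nearest start of Prrx1, was called in 6 libraries. Fold enrichment was 3.50 and 7.26 in vehicle replicates 1 and 3, 4.44 in E2 replicate 1, 5.14 in E2 plus fulvestrant replicate 1, and 5.87 and 4.10 in fulvestrant replicates 1 and 2. Of these, 5 passed q of 0.05, all but vehicle replicate 1, and the summits were spread over 307 bp. Each treatment had at least 1 call here. It was the one recurrent distal region of the 10 loci that was also found with lists of equal length and by chaining summits within 150 bp.

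The bases around this Prrx1 summit are shown because they carry an AP-1 match side by side with an E-box, and a second E-box on the other strand farther along, all in capitals. E-boxes of the form CATCTG were found in 13.9% of recurrent distal regions and in 18.3% of distal regions called in 1 library. A match is a description of the letters and not of a bound site.
Prrx1 intron, chr1:163252470-163252670: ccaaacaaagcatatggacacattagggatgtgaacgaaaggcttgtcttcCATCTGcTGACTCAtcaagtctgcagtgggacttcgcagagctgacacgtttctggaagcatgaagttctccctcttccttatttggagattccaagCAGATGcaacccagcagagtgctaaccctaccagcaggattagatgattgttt

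Further regions in the introns of Prrx1 were called in 4 libraries each, all of replicate 1. A distal one lay 39520 bp into the gene with fold enrichment from 2.71 to 4.27, and another 33043 bp into the gene, within 3000 bp of a start of the transcript Gm20471, had 3.50 to 4.92. The Prrx1 locus had 7, 4 and 4 peaks in vehicle, 7, 2 and 1 in E2, 5, 3 and 2 in E2 plus fulvestrant, and 3, 1 and 0 in fulvestrant. Every fulvestrant library was below every vehicle library.

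Tcf21 (chr10:22817281-22820174, minus strand) stood apart from the others, with no peak within 3000 bp of its starts in any list. The locus held 9 peaks in 12 lists, all of them distal, and 1 passed q of 0.05. The most widely called region lay at position -29720 bp, in vehicle replicate 2 and E2 replicates 2 and 3. Counts were 1, 4 and 0 in vehicle, 1, 1 and 1 in E2, 0, 0 and 0 in E2 plus fulvestrant, and 1, 0 and 0 in fulvestrant. The E2 and E2 plus fulvestrant groups did not overlap, but a single peak separated them and vehicle spanned both.

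Osr1 (chr12:9570116-9581500, plus strand) had nearly all of its peaks at a start. A region in an exon, 4339 bp into the gene and 14 bp downstream of an annotated start, was called in 5 libraries. Fold enrichment was 2.84 and 5.71 in vehicle replicates 1 and 3, 4.07 in E2 replicate 1, 4.0 in E2 plus fulvestrant replicate 1 and 3.91 in fulvestrant replicate 1, and all but the first passed q of 0.05. These were 5 of the 7 peaks in its locus. Osr2 (chr15:35296098-35303305, plus strand) had a start region in the same 5 libraries, at 4.25, 3.33, 4.80, 6.08 and 6.65 in the same order, of which all but vehicle replicate 3 passed. A region at position -17514 bp from the start of Osr2 was called in the 4 libraries of replicate 1, at 3.50 in vehicle, 2.66 in E2, 3.32 in E2 plus fulvestrant and 4.07 in fulvestrant. The Osr2 locus had 3, 3 and 2 peaks in vehicle, 6, 3 and 1 in E2, 3, 2 and 1 in E2 plus fulvestrant, and 3, 0 and 0 in fulvestrant.

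Runx1 (chr16:92601466-92826149, minus strand) was the longest locus, at 275 kb with its upstream part, and held 112 of the 361 peaks. Runx1 has a distal and a proximal promoter, far apart from each other. The region called in most libraries among its starts was at the proximal one, 128733 bp into the gene and at position -88 bp from an annotated start. Fold enrichment there was 5.06 and 3.85 in vehicle replicates 1 and 3, 3.72 in E2 replicate 1, 3.81 in E2 plus fulvestrant replicate 1 and 5.17 in fulvestrant replicate 1, and all 5 passed q of 0.05. A second region at position -1486 bp from this start was called in 4 libraries, at 3.43 to 5.65. Within 3000 bp of the distal start there were 2 regions, each in a single vehicle library. The proximal promoter is shown because it, and not the distal one, was the recurrent start of Runx1. The capitals mark a TEAD match on the reverse strand, a motif found in 7.56% of the 5398 recurrent promoter regions of the genome.
Runx1 proximal promoter, chr16:92697316-92697516: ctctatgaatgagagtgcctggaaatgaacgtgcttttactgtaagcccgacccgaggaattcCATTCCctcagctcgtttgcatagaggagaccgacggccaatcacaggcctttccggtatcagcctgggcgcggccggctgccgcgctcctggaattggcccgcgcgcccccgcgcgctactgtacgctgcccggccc

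Away from the starts, 3 Runx1 regions were called in 5 libraries each, and these came in part from libraries without the promoter calls. A region 67781 bp into the gene was called in vehicle replicate 2 at 4.84, E2 replicates 1 and 3 at 2.94 and 2.65, E2 plus fulvestrant replicate 1 at 3.72 and fulvestrant replicate 2 at 3.59. A region at position -47041 bp from the 5′ end of the gene was called in vehicle replicates 1 and 2 at 2.92 and 4.05, E2 replicates 1 and 3 at 3.51 and 3.03, and E2 plus fulvestrant replicate 2 at 3.31. Around both summits, 100% of the 201 bases were marked as repeats in the RefSeq assembly, and 75.6% and 78.6% lay in runs of alternating C and A or T and G. The part of the repeat in these calls was not tested. The upstream one also held 5 RUNX matches, all inside the repeat, a motif found in 16.2% of recurrent distal regions. The first is shown so that the repeat can be seen beside the promoter above, with an E-box match in capitals. The third region, 219026 bp into the gene, had 12.4% of its bases marked as repeats, and none of its 5 calls passed q of 0.05.
Runx1 intronic repeat, chr16:92758268-92758468: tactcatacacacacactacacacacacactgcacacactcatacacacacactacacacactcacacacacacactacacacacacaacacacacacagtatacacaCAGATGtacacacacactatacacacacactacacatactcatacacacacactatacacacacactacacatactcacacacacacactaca

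Pdgfrb (chr18:61045150-61085061, plus strand) had the highest fold enrichment of any peak over the 10 loci, 8.53 in vehicle replicate 3 at its start. The other values of that region were 6.64 in vehicle replicate 1, 5.33 in E2 replicate 1, 6.91 in E2 plus fulvestrant replicate 1 and 4.27 in fulvestrant replicate 1. All 5 passed q of 0.05, and the summits lay between positions -132 and 56 bp from the start. Its summit window held 1 RUNX match, a motif found in 9.26% of the recurrent promoter regions of the genome. The locus had 3, 3 and 3 peaks in vehicle, 3, 5 and 2 in E2, 3, 6 and 3 in E2 plus fulvestrant, and 5, 0 and 2 in fulvestrant, and the groups overlapped.

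**Figure D2:**
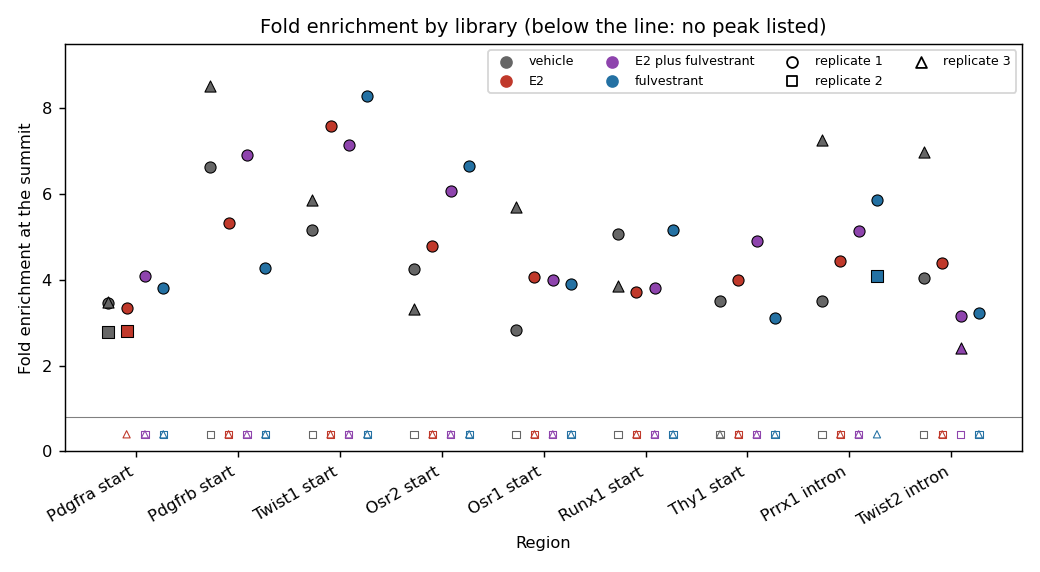
Fold enrichment at the summit (y axis, ratio of tags to local background) is plotted by library for the start regions of 7 genes and the intronic regions of Prrx1 and Twist2 (x axis). Filled symbols are listed peaks, coloured by treatment and shaped by replicate number, and small open symbols under the line mark libraries with no peak in that region. At the starts of Pdgfrb, Twist1, Osr1, Osr2 and Runx1, the listed peaks are those of vehicle replicates 1 and 3 and of replicate 1 of the other 3 treatments.

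The start regions of Pdgfrb, Twist1, Osr1, Osr2 and Runx1 were therefore called in the same 5 libraries, and in those 5 each treatment was represented. Within replicate number 1, where the 4 treatments had similar shares of promoters called, E2 was not the highest or the lowest of the 4 at Pdgfrb, Twist1, Osr2 or Thy1, was the highest at Osr1 and was the lowest at Pdgfra and at the Runx1 region at -88 bp. At the second Runx1 start region, at -1486 bp, E2 was the highest at 5.65. Vehicle had 3.89 there, E2 plus fulvestrant 3.95 and fulvestrant no call. Each treatment had a single library of number 1, so there was no replicate check of the order.

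Of the 238 regions, 193 were distal, and 154 of these, 79.8%, were called in a single library, beside 79.9% of the 340524 distal regions on the numbered and sex chromosomes. Of the distal regions, 2 were called in at least 6 libraries, 1.04% beside 1.66% in the genome, and these were the intronic regions of Prrx1 and Twist2. Of the 10 loci, 2 thus held a recurrent distal region, beside 15.8% of all protein-coding loci. Both lost that status when any of vehicle replicate 1, vehicle replicate 3, E2 replicate 1, E2 plus fulvestrant replicate 1 or fulvestrant replicate 1 was left out, with 6 of the remaining 11 libraries required. Each was called in exactly 6 libraries, so leaving out any of its own had this outcome by construction. Without fulvestrant replicate 2 the Twist2 region alone reached 6 libraries, and without E2 plus fulvestrant replicate 3 the Prrx1 region alone did. No distal region reached 9 libraries.

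**Figure D3:**
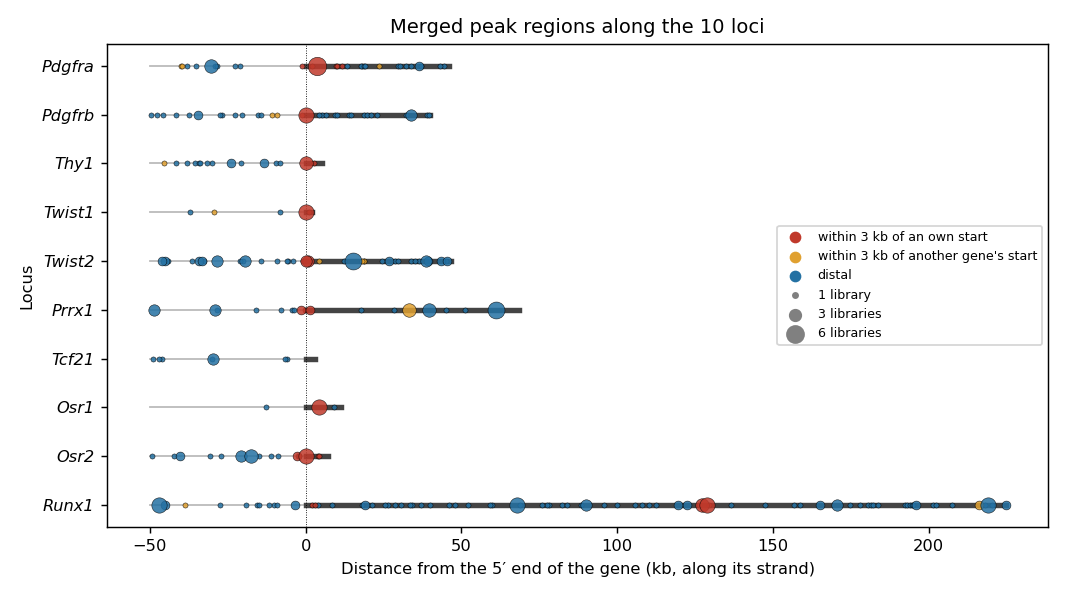
Merged peak regions are placed by the distance of their summit from the 5′ end of the gene (x axis, kb along the strand) in each locus (y axis). The thick line is the gene body and the thin line its upstream 50 kb, the area of a point grows with the number of libraries, and the colour tells starts of the gene itself, starts of other genes and distal regions apart. Of 193 distal points, 154 stand for 1 library, and the points for at least 5 libraries lie in introns of Prrx1 and Twist2, in introns of Runx1 and upstream of Runx1.

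Summed over the 10 loci, the lists held 41, 55 and 31 peaks in vehicle, 49, 26 and 15 in E2, 32, 31 and 23 in E2 plus fulvestrant, and 42, 9 and 7 in fulvestrant. The means were 42.3 ± 12.1 (SD, n = 3) in vehicle, 30 ± 17.3 in E2, 28.7 ± 4.93 in E2 plus fulvestrant and 19.3 ± 19.7 in fulvestrant, with 3 libraries in each. E2 and E2 plus fulvestrant differed by 1.33 peaks, which is less than the spread within either group. The difference was 17.0 within replicate number 1, with 1 library a side, and -6.50 within replicate numbers 2 and 3. It was -8.17 without E2 replicate 1 and -1.50 without E2 plus fulvestrant replicate 3. Per 10000 peaks listed, the means were 5.75 ± 1.08 in vehicle, 5.43 ± 0.746 in E2, 6.88 ± 1.64 in E2 plus fulvestrant and 3.61 ± 1.82 in fulvestrant. Fulvestrant was thus still the lowest, and E2 plus fulvestrant was the highest. The part of list length in the sums was not tested. The 2 low fulvestrant libraries, replicates 2 and 3, had 2.82 and 2.33 per 10000, and fulvestrant replicate 1 had 5.69. The median density of the 10 loci was 3.2 peaks per library and 100 kb, beside 3.08 over all protein-coding loci with quartiles at 1.80 and 4.33.

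**Figure D4:**
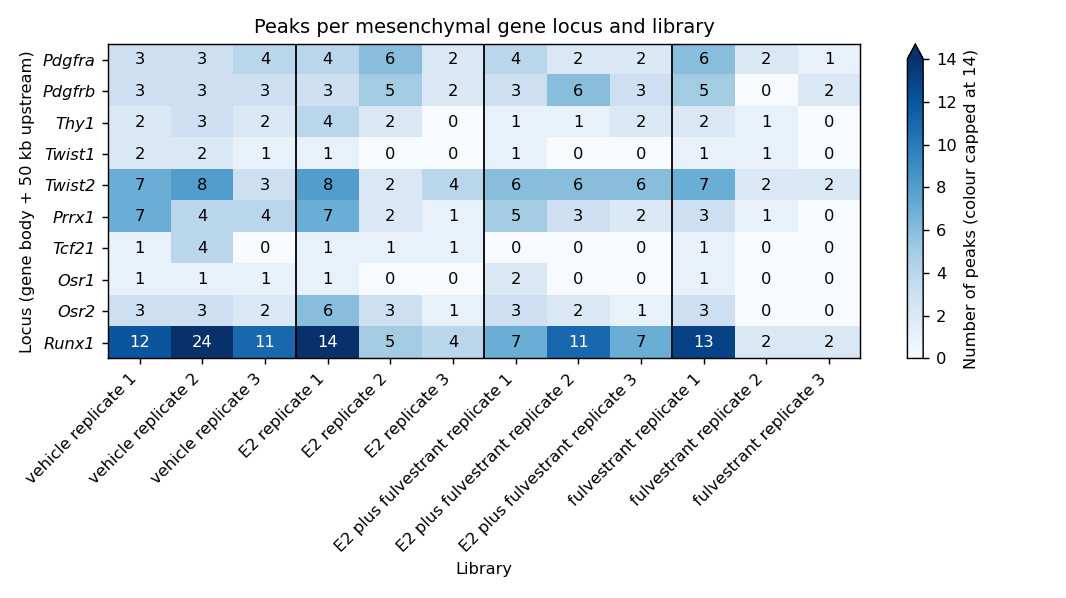
The number of peaks in each locus (rows) is written and coloured for each library (columns), with vertical lines between the 4 treatments. Fulvestrant replicates 2 and 3 have 9 and 7 peaks in all, and fulvestrant replicate 1 has 42.

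The study asked how E2 and its antagonist change accessible chromatin, and the main comparison was that of E2 with E2 plus fulvestrant. Peak numbers per locus were compared on the scale log2(peaks + 1), which understates changes at loci with few peaks, by limma over 18507 protein-coding loci with a mean of at least 1 peak per library. Of the 10 members 7 entered it, and Twist1, Tcf21 and Osr1 fell below that mean. No locus passed an adjusted p of 0.05 for E2 against E2 plus fulvestrant (0% called), where 272 had an unadjusted p under 0.05 and none of them was a member. The log2 differences were 0.41 at Pdgfra (95% interval -0.79 to 1.61), -0.21 at Pdgfrb (-1.47 to 1.04) and 0.11 at Thy1 (-1.24 to 1.45). They were -0.45 at Twist2 (-1.60 to 0.70), -0.19 at Prrx1 (-1.48 to 1.09), 0.41 at Osr2 (-0.93 to 1.75) and -0.26 at Runx1 (-1.44 to 0.93). Signs were mixed, and each interval included 0 and differences of over 0.6 on the log2 scale in both directions. The adjusted p by limma with Benjamini-Hochberg adjustment was 1 for all 7.

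Against vehicle, no locus passed for E2 (0% called, 689 at an unadjusted p under 0.05), for fulvestrant (0%, 1188) or for E2 plus fulvestrant (0%, 1212). The 3 comparisons share the vehicle libraries, and the median log2 difference of all loci tested was -0.47, -0.55 and -0.53. Exact permutation tests of 3 against 3 libraries cannot go below a p of 0.10, and none passed after adjustment. Of the 7 members tested, Runx1 and Prrx1 had an unadjusted p under 0.05, both for fulvestrant against vehicle. Runx1 had 12, 24 and 11 peaks in vehicle, 13, 2 and 2 in fulvestrant, 14, 5 and 4 in E2, and 7, 11 and 7 in E2 plus fulvestrant. The vehicle and fulvestrant values overlapped through fulvestrant replicate 1. The fulvestrant difference was -1.65 (95% interval -2.83 to -0.47) with an adjusted p of 0.686 by limma, and over the alternatives and left-out libraries the adjusted p ran from 0.0963 to 1. At Prrx1 it was -1.55 (-2.83 to -0.27), with the same adjusted p of 0.686. With peaks of q 0.05 or less it was -0.14 at Prrx1 (-2.08 to 1.80) and -1.19 at Runx1 (-3.39 to 1.00). With equal list length it was -1.11 at Prrx1 (-2.22 to 0.01) and -1.07 at Runx1 (-1.99 to -0.16), and the median of all loci was 0.00. Neither locus passed an adjusted p of 0.05 by limma in these settings. The share of promoters called was 29.6% and 19.5% in fulvestrant replicates 2 and 3, and its part in these differences was not tested. In bulk cultures, fewer cells of a type and less accessible chromatin per cell cannot be told apart.

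**Figure D5:**
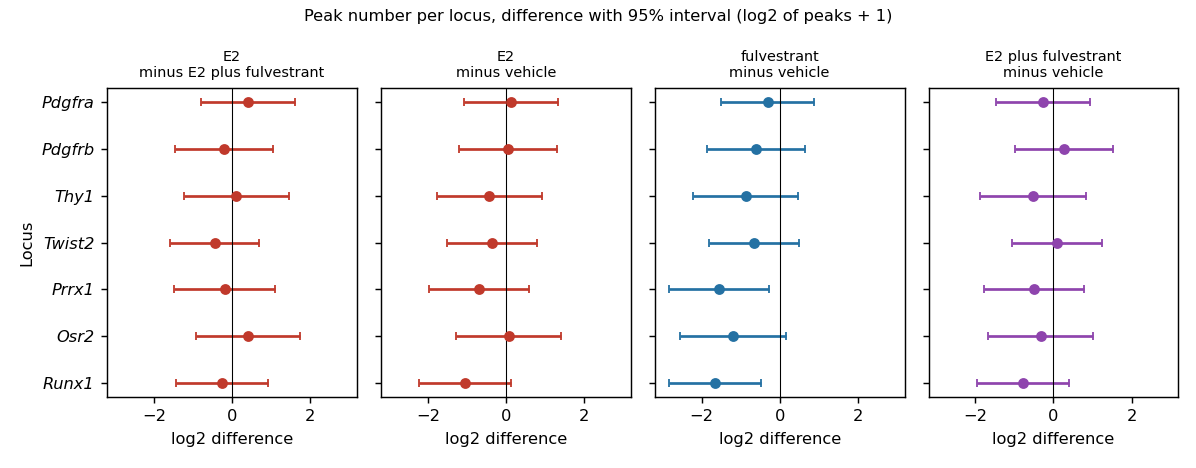
The log2 difference in peaks + 1 (x axis) is plotted with its 95% interval for the 7 loci tested (y axis) in 4 comparisons. All intervals for E2 minus E2 plus fulvestrant include 0, and for fulvestrant minus vehicle those of Prrx1 and Runx1 do not, at an adjusted p of 0.686.

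The groups did not overlap at 1 of the 10 loci for E2 against E2 plus fulvestrant (Tcf21, higher in E2), beside 2.09% of all 21938 protein-coding loci. They did not overlap at 1 for fulvestrant against vehicle (Prrx1, lower in fulvestrant), beside 4.69% of all. For E2 against vehicle and for E2 plus fulvestrant against vehicle there were 0 such members, beside 3.37% and 5.70% of all loci. Without the limit on mean peaks, Tcf21 differed by 1.00 on the log2 scale between E2 and E2 plus fulvestrant (95% interval -0.08 to 2.08), with an adjusted p of 1 by limma. In that fit of 21938 loci, Twist1 differed by -1.06 both for E2 and for E2 plus fulvestrant against vehicle with adjusted p of 0.841 and 0.695 by limma. Tcf21 differed by -1.11 for E2 plus fulvestrant against vehicle with an adjusted p of 0.695 by limma. These 3 were the member differences among Twist1, Tcf21 and Osr1 with an unadjusted p under 0.05. Of all 21938 loci in that fit, 4.27% had such a p for E2 against vehicle and 6.15% for E2 plus fulvestrant against vehicle. The median log2 differences of all loci were -0.42 and -0.53 in that order.

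Other genes of the same families were taken as lists chosen with earlier results known. Of all protein-coding promoters, 45.2% were called in at least 6 libraries, and the median was 5 libraries. Among 11 other mesenchymal transcription factors, 6 had a promoter called in at least 6 libraries. The most widely called were Nr2f2 in 9 and Prrx2, the paralog of Prrx1, in 8. The least were Meox1 in 2, Zeb2 in 3, and Meox2 and Tbx15 in 4 each. Among 7 partners and inhibitors of basic helix-loop-helix factors, 5 did, with the E proteins Tcf3 and Tcf4, which pair with TWIST and TCF21, in 9 each. Hand2 was called in 0, as Tcf21 was. Of the RUNX family, Runx2 and Runx3 were called in 6 libraries and Cbfb, the partner subunit, in 5. The ligands of the PDGF receptors were called in fewer, with Pdgfa in 5, Pdgfc and Pdgfd in 3 and Pdgfb in 2. Of 8 other fibroblast surface genes, 2 reached 6 libraries, Cd44 and Itgb1. Of these 33 genes, 32 had a mean of at least 1 peak and were tested by limma, all but Hand2, and 0 passed an adjusted p of 0.05 in either direction in the 4 comparisons.

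The labelled cell type was checked by promoters of marker genes. Of 8 fibroblast markers, 3 of them members, 5 were called in at least 6 libraries, with the collagen genes Col1a1 and Col1a2 in 9, and the markers Dcn in 5, Col3a1 in 4 and Lum in 3. Of markers of other cells, 1 of 5 muscle lineage genes (Cdh15), 0 of 5 endothelial, 0 of 5 blood, 0 of 4 pericyte and smooth muscle and 0 of 4 epithelial genes reached 6. The endothelial genes Pecam1 and Cdh5, the blood genes Csf1r and Spi1, and the smooth muscle gene Myh11 were called in 5 each, as was Dcn. Pax7 and Myod1, which define the myogenic lineage, were called in 0 libraries, Myf5 in 1 and Myog in 4. The share over all protein-coding genes was 45.2%.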

How the data were processed

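ATAC-seq peak lists of 12 libraries were analysed, 1 list per library with no pooling, and groups and replicate numbers came from the sample labels. By the study's methods, reads were trimmed and aligned by the authors to mm10 with Bowtie2, removed duplicates with Picard (2.21.4 in the submitters' processing notes) and called peaks with MACS2, after 3 h of pretreatment with fulvestrant or DMSO and 1 h with E2 or ethanol. Each deposited peak has an integer score, a fold enrichment (the authors' ratio of tags to local background), a deposited −log10 p-value and a deposited −log10 q-value, and a summit. The smallest −log10 p-value was 2.01. The lists give no read totals, so their depth is unknown here, and no count test was run.

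Members and gene lists were chosen with earlier results of these data known. All 10 members are named by rule, with up to 3 distal regions per locus ranked by number of libraries. Loci, starts and exons came from GENCODE M21, and sequences from the RefSeq copy of GRCm38, the sequence of mm10, on which all peaks of numbered and sex chromosomes fitted. Counts over promoters use every peak near a start, also beyond the end of the gene. Regions are runs of overlapping or touching peaks, recurrent in at least 6 of 12 libraries. Peak numbers were fitted with limma 3.58.1 in R 4.3.3 on log2(peaks + 1), with 4 group means over all 12 libraries, a trended prior and Benjamini-Hochberg adjustment over all loci with a mean of at least 1. Python 3.11.15 with pandas 2.3.3 did the rest. The code was tested on simulated data. Alternatives were peaks of q 0.05 or less, a −log10 q of at least 5, the best peaks up to equal list length, a pseudocount of 0.5, no filter, 10000 bp upstream, a promoter window of 1000 bp, the replicate block and each library left out. The count of promoters in at least 6 libraries, and its alternatives, were added after seeing the data. Of the sequences and marker lists examined, 1 of each is not reported here.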

Additional observations from a re-analysis of the deposited data

How the results depend on the processing

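No member passed an adjusted p of 0.05 by limma in any of the 4 comparisons, with the replicate block, equal list length, peaks of q 0.05 or less, a pseudocount of 0.5, no filter or any 1 library left out. The exact permutation test also called no member, but it could not have done so, as its p cannot go below 0.10. Other loci passed without the filter (3 for E2 against E2 plus fulvestrant, and against vehicle 8 for E2, 7 for fulvestrant and 7 for both agents) and with q of 0.05 or less (0, and against vehicle 2, 5 and 2 in that order). With the replicate number as a block the count of members past it was 0 as well, and the values were 0.41, -0.21, 0.11, -0.45, -0.19, 0.41 and -0.26, as without it. Same-numbered libraries of different treatments had correlated deviations between -0.0452 and 0.225, over 0.1 in 5 of 18 pairs, and the 6 pairs of number 1 between 0.05 and 0.225. Pairs of different number reached 0.123, with 1 of 36 over 0.1. The labels give no shared origin and not every same-numbered pair was over 0.1, so the main fit left the numbers out. A pair under 0.1 does not show that its libraries share no batch, and 10 of 12 libraries correlated best with one of their own number. By the study's methods, batch effects were removed with limma in its own ATAC-seq analysis, and the batches are not named there. The libraries of number 1 also had few peaks on chromosome Y and similar shares of promoters called. Whether same-numbered libraries share an origin is not known here, and the fit with the block is the alternative. Over all loci the block moved the unadjusted counts from 272 to 711 for E2 against E2 plus fulvestrant, with 0 calls in both. For fulvestrant against vehicle it moved them from 1188 to 2603, again with 0 calls in both.

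The log2 differences of E2 and E2 plus fulvestrant turned sign with peaks of q 0.05 or less at Pdgfra (-0.19), Prrx1 (0.19) and Runx1 (0.23), and with equal list length at Thy1 (-0.53). Leaving out single libraries gave -0.48 to 0.06 at Pdgfrb, -0.40 to 0.76 at Thy1, -0.76 to 0.24 at Prrx1, -0.03 to 0.88 at Osr2, -0.74 to 0.05 at Runx1, 0.12 to 0.73 at Pdgfra and -0.85 to -0.06 at Twist2. Twist1, Tcf21 and Osr1, below the filter, have no such values. The cause was not tested.

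The difference in summed peaks, E2 minus E2 plus fulvestrant, was 1.33. It was -5.67 with equal list length, -1.45 per 10000 peaks, -0.333 with 10000 bp upstream, 17.0 within number 1, -6.50 within numbers 2 and 3, and -8.17 to 8.83 with single libraries left out. E2 minus vehicle was -12.3, and -4 with q of 0.05 or less, -0.667 with a −log10 q of at least 5, -4.33 with equal list length, 8 within number 1, and -21.8 to -4.83 with libraries left out. Fulvestrant minus vehicle was -23.0, and -5.67 with q of 0.05 or less, -0.667 with a −log10 q of at least 5, -10.7 with equal list length, 1.00 within number 1, and -34.3 to -16.7 with libraries left out. E2 plus fulvestrant minus vehicle was -13.7, and -4.67 with q of 0.05 or less, -1 with a −log10 q of at least 5, 1.33 with equal list length, 1.13 per 10000 peaks, and -19.3 to -7.33 with libraries left out.

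Member promoters in all 12 libraries numbered 0 throughout. In at least 6 libraries there were 6, and 3 with a 1000 bp window, 1 with q of 0.05 or less, 0 with a −log10 q of at least 5 and 1 with equal list length. The shares of all protein-coding promoters under those alternatives were not computed. With all peaks, 9 reached at least 3 of the 6 libraries with over 40% of promoters called, beside 62.6% of all protein-coding promoters. Recurrent distal regions numbered 2, and 0 at 9 of 12 libraries, 0 with q of 0.05 or less, 1 with equal list length, 1 by chained summits, and 0 to 2 with a library left out. Stricter lists hold fewer peaks by construction. Peak lists give no read depth per region, so a smaller change in accessibility than the gain or loss of a peak could not be detected.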
